A study of Moricandia suffruticosa and Brassica napus with 23 samples.

Results

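Arabinogalactan proteins and fasciclin-like arabinogalactan proteins were examined in drought-treated, heat-treated and untreated leaves of oilseed rape, Brassica napus. The genes were chosen by description. A gene was taken as a member where the deposited annotation called it an arabinogalactan or fasciclin protein and its value reached 1 FPKM in at least 3 of the 9 leaf libraries. FPKM here counts the fragments on each kilobase of a gene's coding sequence relative to the library's assigned total. The rule gave 92 members out of 196 genes so described and 101040 genes listed. Of the 104 described genes that were not members, 52 stood at 0 in all 9 libraries.

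Water was withheld from the drought plants for 3 days, the heat plants were held at 40 °C for 3 h, and the control plants were left untreated. All plants were 35 days old and had been raised in soil in a chamber (25 °C, humidity of 60%, light for 16 h), and the plant line is given only by a number. Each group has 3 libraries of polyadenylated leaf RNA, so that n = 3 stands behind every mean and SD. The labels do not say whether a group's libraries were made from different plants, and their treatment notes speak of 1 drought replicate. The p-values therefore cover only library-to-library spread, possibly technical. The 14 samples of the wild crucifer Moricandia suffruticosa in the same series were not analysed here.

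Arabinogalactan proteins are secreted proteins of the plant cell surface whose hydroxyproline residues carry large branched chains of galactose and arabinose. Most are tethered to the plasma membrane by a lipid anchor and reach into the wall. They fall into classical proteins, a lysine-rich type, chimeric types with another domain, and arabinogalactan peptides, which are cut down to a very short backbone. Fasciclin-like arabinogalactan proteins (FLAs) also carry fasciclin (FAS1) domains, a fold that in animals acts in cell adhesion. In Arabidopsis FLAs have been linked to root growth, stem stiffness and pollen development.

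The members fell into 53 arabinogalactan protein genes matching 17 Arabidopsis loci and 39 fasciclin-like genes matching 16 loci. Of the 53, 27 were arabinogalactan peptides, 13 classical, 5 lysine-rich and 3 chimeric with a cysteine-containing domain, and 5 matched a further locus, AT4G16980. Of the 39, 13 belonged to FLA group A, 12 to group B, 9 to group C and 2 to group D as grouped in Arabidopsis, and 3 matched other fasciclin-like loci. The annotation placed a FAS1 domain in 37 of the 39 fasciclin-like members, and it named 12 of the arabinogalactan members as arabinogalactan peptides by domain. The median encoded protein was 63 residues long for the arabinogalactan peptides, 132 for the classical proteins and 446 for FLA group B. A value of 1 FPKM therefore rested on 2.24 to 2.81 reads for a peptide gene and on a median of 17.0 reads for FLA group B, so the peptide genes carry more counting error at the same level. The A subgenome held 49 members and the C subgenome 42. Arabidopsis matches ranged from 48.33% to 94.54% identity, and names below are those of the best match. Copies of a gene on the A and C subgenomes are close in sequence, and how shared reads were counted is not given in the sources used here, so the split of reads among copies of 1 gene is uncertain.

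Libraries held 12173804 to 12934922 assigned reads. Summed leaf mesophyll markers stood at 24220 to 25270 FPKM in drought, 10180 to 10410 in heat and 27850 to 28180 in control libraries, so all 9 libraries carried the leaf genes of their label. The highest of these genes were copies of RCA, and the markers did not move together. Copies of RCA and CA1 that reached the same threshold were lower in heat than in control leaves. LHCB2.1 BnaA03g37990D averaged 22.5 FPKM in drought, 635.4 in heat and 81.4 in control leaves. The copy BnaC03g44110D averaged 150.4, 643.6 and 408.0 FPKM in the same order. Because these are bulk leaf samples, fewer cells of a type and less RNA per cell cannot be told apart.

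Added together, the 92 members stood at 1181 ± 82.8 FPKM in drought leaves, 813.1 ± 39.2 FPKM in heat leaves and 1435 ± 37.9 FPKM in control leaves (SD). The 3 groups did not overlap in this sum. Most of the difference between drought and control leaves lay in the fasciclin-like genes. Their sum was 171.2, 163.9 and 168.7 FPKM in drought leaves, 120.2, 109.5 and 108.7 FPKM in heat leaves, and 377.6, 378.2 and 367.6 FPKM in control leaves, and no group overlapped another. The drought mean was 0.448 times and the heat mean 0.301 times the control mean. The arabinogalactan genes summed to 1013 ± 83.1 FPKM in drought leaves, 700.3 ± 38.2 FPKM in heat leaves and 1061 ± 37.0 FPKM in control leaves, and here drought and control overlapped while heat lay below both. As a share of the summed FPKM, the fasciclin-like genes made up 13.2% to 15.3% in drought, 12.9% to 14.6% in heat and 25.6% to 26.9% in control libraries. These sums are of the values that chose the members and are given as a description.

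**Figure D1:**
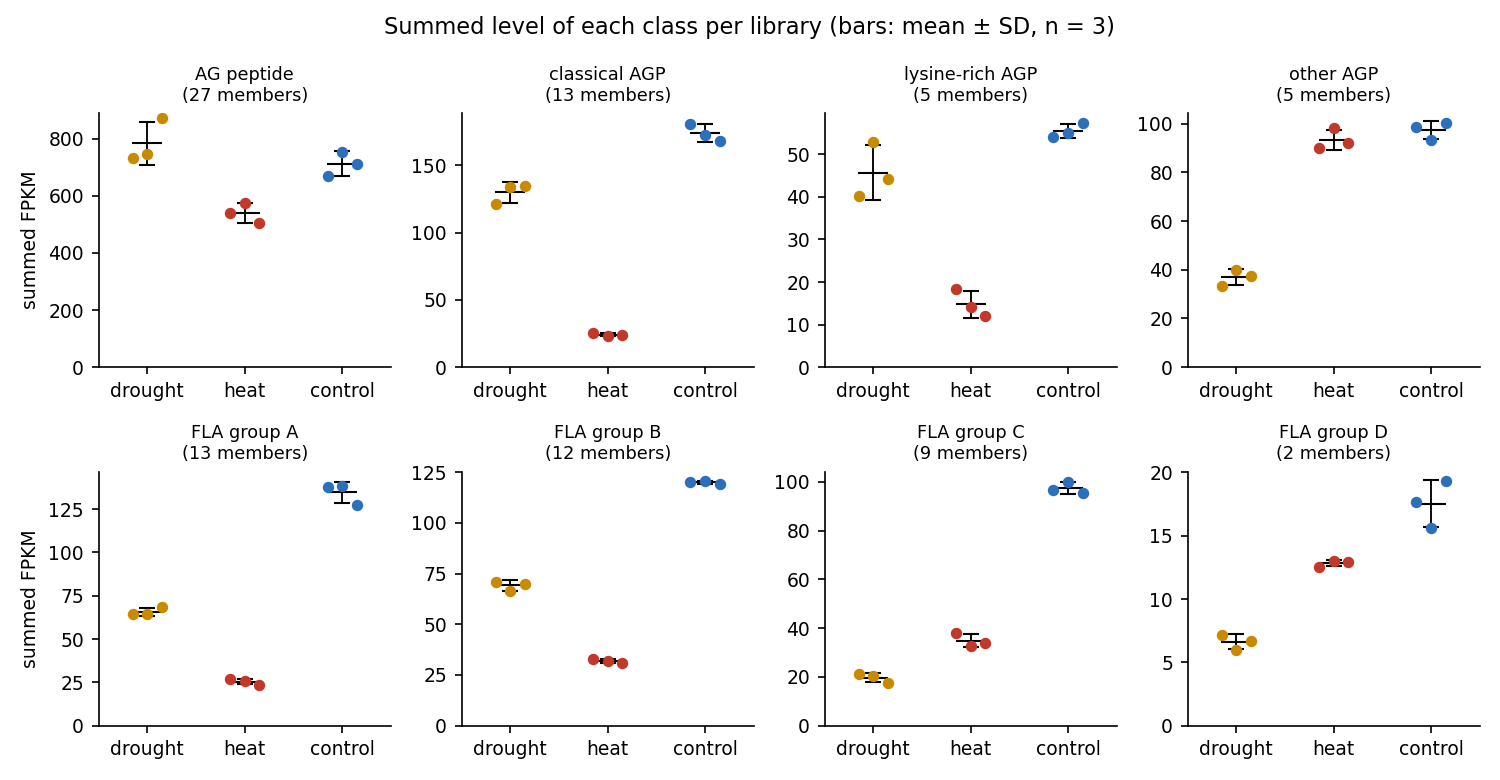
Summed FPKM of the members of each class in every library, with drought left, heat in the middle and control right; points are libraries and bars are the mean ± SD of 3 libraries. Classical proteins averaged 129.9 FPKM in drought, 24.04 in heat and 173.8 in control leaves, whereas FLA group C averaged 19.63 in drought, 34.83 in heat and 97.42 in control leaves.

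Levels of single members spanned a wide range. The mean over the 9 libraries ran from 0.583 to 137 FPKM with a median of 5.48 FPKM. Arabinogalactan peptides were the highest, with a class sum of 783.9 ± 76.0 FPKM in drought, 538.7 ± 35.7 FPKM in heat and 711.6 ± 43.5 FPKM in control leaves. Of the 8 members with the highest means, 4 were copies of AGP15, 1 of AGP12 and 1 of AGP16, all genes for arabinogalactan peptides. Beside them stood a copy of AT4G16980 on an unplaced scaffold (BnaUnng03440D) and a copy of the classical AGP2 (BnaC08g35060D). Reaching 1 FPKM in all 9 libraries was a property of 51 members, while 8 members did so in 1 group alone, 2 of them in drought, 2 in heat and 4 in control. Such members had to differ between groups, so the counts below describe the list and support no statement about it. The rule turns on the lowest of a gene's 3 highest libraries. Just inside it lay AGP1 BnaA02g34140D at 1.03 FPKM, FLA10 BnaA09g38900D at 1.11 FPKM and AGP6 BnaA05g33680D at 1.13 FPKM in that library. Just outside lay FLA19 BnaA02g27190D at 0.991, AGP26 BnaC04g00020D at 0.907 and FLA21 BnaC04g19790D at 0.906 FPKM.

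Changes were tested in 1 limma fit over all 44260 genes that passed the same threshold, on log2(FPKM + 1), which understates the change of genes of low level. To be called, a gene had to change by 1 or more on the log2 scale, up or down, with a Benjamini-Hochberg adjusted p below 0.05. In drought leaves 27 of the 92 members (29.3%) fell and 4 (4.35%) rose. Of all genes tested, 6.87% were called lower and 5.12% higher, so the share of members that rose was near that of all genes and is no result about them. The median log2 change of the members was -0.57, against -0.06 over all genes tested. By family, 16 of the 39 fasciclin-like genes fell and 1 rose, with a median of -0.92, and 11 of the 53 arabinogalactan genes fell and 3 rose, with a median of -0.31. In 30 of the 39 fasciclin-like genes every drought library lay below every control library, which held for 31.4% of all genes tested. Over all members 47 of 92 lay wholly below and 14 wholly above control, the second against 23.3% of all genes.

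Heat was set against the same 3 control libraries. In heat leaves 50 of the 92 members (54.3%) fell and 6 (6.52%) rose, where 11.2% of all genes tested were called lower and 14.4% higher. The median log2 change of the members was -1.15, against 0.16 over all genes. The fasciclin-like genes gave 25 falls and 1 rise of 39, and the arabinogalactan genes 25 falls and 5 rises of 53. Every heat library lay below every control in 66 members, as in 29.2% of all genes, and above in 12, as in 42.1% of all genes. Scaling by TMM factors moved the median of all genes in this comparison by -0.15 to 0.01 on the log2 scale and the share of calls that were higher from 56.2% to 45.0% of all genes called. With that scaling 55 members fell and 4 rose.

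The contrast of heat with drought leaves tests where the 2 treatments differed. In it 30 members (32.6%) were lower in heat and 11 (12.0%) higher, where 11.1% of all genes tested were lower and 17.5% higher. The median was -0.51, against 0.20 over all genes. With quantile normalization 35 members were lower and 7 higher, so that 16.7% of the called members were higher in heat, against 26.8% in the fit above. The heat libraries lay wholly below the drought libraries in 47 members, as in 27.6% of all genes, and wholly above in 22, as in 44.2% of all genes. By class, none of the 13 classical genes was higher in heat and 8 were lower. Of these 8, 2 are AGP6 copies that met the rule through their drought values alone, which fixed that direction. In FLA group C none of 9 was lower and 2 were higher.

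**Figure D2:**
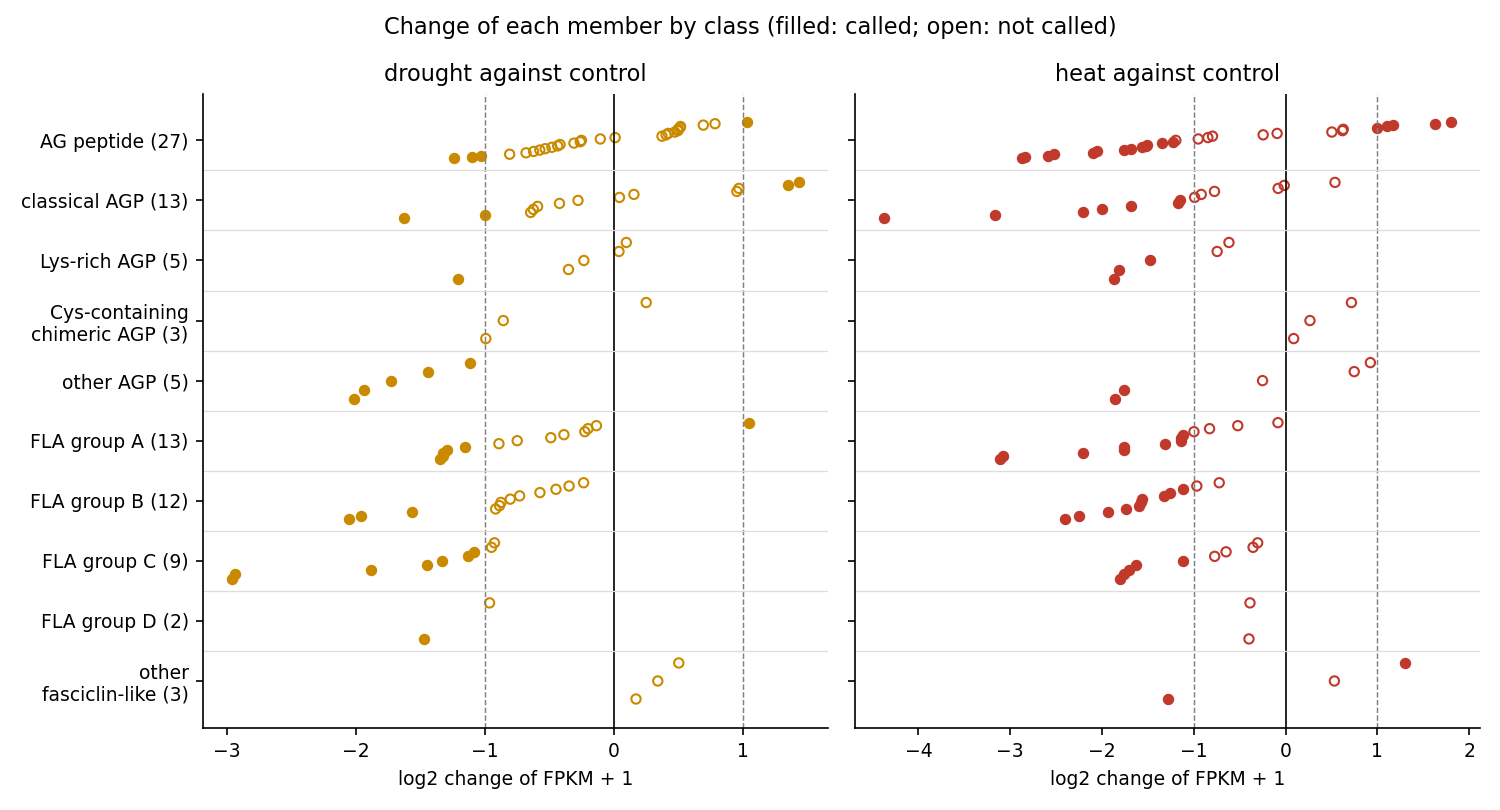
Log2 change of FPKM + 1 of each member, in drought against control (left) and heat against control (right), by class with the number of members in brackets; filled points were called and open points were not, and dashed lines mark a change of 1. In FLA group C all 9 members lie left of 0 in drought and 7 were called, and in FLA group B all 12 lie left of 0 in heat and 10 were called. The rule fixed the direction of FLA10 in group C and of FLA16 BnaA03g16360D and BnaC03g19670D in group B.

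Among the fasciclin-like genes, FLA group C showed the largest falls in drought, with 7 of 9 members called lower, where 6.87% of all genes tested were. Of the 7, FLA10 BnaA09g38900D met the rule through its control values alone, which fixed its direction. Both copies of FLA8, a lipid-anchored FLA of this group that is also known as AGP8, led all members. FLA8 on chromosome A05 (BnaA05g04890D) stood at 2.63, 3.69 and 1.75 FPKM in drought leaves, 9.64, 7.39 and 7.50 FPKM in heat leaves, and 27.2, 27.4 and 26.8 FPKM in control leaves. All drought libraries lay below all heat libraries, and these below all controls. The drought mean was 0.0991 times the control mean, a log2 change of -2.96 ± 0.17 (SE; limma adjusted p = 7.4e-08). In heat the log2 change was -1.63 ± 0.17 (limma adjusted p = 6.6e-06).

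The copy on C04 (BnaC04g04230D) followed the same order, with 2.04, 1.30 and 1.69 FPKM in drought leaves, 5.87, 4.59 and 5.31 FPKM in heat leaves, and 18.3, 20.4 and 19.4 FPKM in control leaves. Its log2 change was -2.94 ± 0.13 in drought (limma adjusted p = 5.9e-09) and -1.71 ± 0.13 in heat (limma adjusted p = 3.6e-07). Both copies were higher in heat than in drought leaves, by 1.34 ± 0.17 for the A05 copy (limma adjusted p = 2.9e-05) and 1.23 ± 0.13 for the C04 copy (limma adjusted p = 5.0e-06) on the log2 scale. For the C04 copy this call was lost with quantile normalization, at a log2 difference of 0.97.

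FLA2, another member of group C, had 4 copies, of which 2 fell in drought and 2 in heat. The copy with the largest drought fall, BnaA06g19130D, stood at 3.09, 3.52 and 3.01 FPKM in drought leaves, 4.26, 2.20 and 4.18 FPKM in heat leaves, and 13.2, 15.0 and 15.4 FPKM in control leaves. Drought and heat overlapped, and both lay below the controls. Its log2 change was -1.89 ± 0.18 in drought (limma adjusted p = 4.8e-06) and -1.81 ± 0.18 in heat (limma adjusted p = 3.6e-06). FLA1, which in Arabidopsis acts in shoot regeneration from tissue culture, had 2 copies, and both fell in drought. The copy on A10 (BnaA10g09880D) averaged 3.65 ± 0.63 FPKM in drought leaves, 4.41 ± 0.84 FPKM in heat leaves and 10.6 ± 0.52 FPKM in control leaves. The single FLA10 member, BnaA09g38900D, averaged 0.105 FPKM in drought, 0.552 in heat and 1.44 in control leaves. It met the rule through its control values alone, so its drought fall is a description.

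FLA group D had 2 members, both copies of FLA4, also called SOS5, which Arabidopsis roots need for normal growth under salt. BnaA06g17970D stood at 2.86, 1.67 and 2.23 FPKM in drought leaves, 5.33, 6.50 and 5.57 FPKM in heat leaves, and 8.92, 6.55 and 8.53 FPKM in control leaves. The drought values were the lowest, and heat values lay just under the controls. It fell in drought by 1.47 ± 0.16 on the log2 scale (limma adjusted p = 1.5e-05) and was not called in heat, where the log2 change was -0.40 ± 0.16. Heat exceeded drought by 1.08 ± 0.16 (limma adjusted p = 8.9e-05). The C03 copy (BnaC03g56000D) averaged 4.38 ± 0.093 FPKM in drought, 7.04 ± 0.46 FPKM in heat and 9.54 ± 1.12 FPKM in control leaves and was not called in drought or heat against control.

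FLA group B holds larger FLAs without the lipid anchor signal. In drought 3 of its 12 members fell, and in heat 10 fell, where 6.87% and 11.2% of all genes tested did. FLA15 had 2 copies and both fell under each treatment. BnaA04g05500D stood at 1.92, 1.10 and 0.946 FPKM in drought leaves, 0.877, 0.603 and 0.591 FPKM in heat leaves, and 8.10, 7.73 and 7.90 FPKM in control leaves, so both treatments lay far below the controls. The log2 change was -1.96 ± 0.16 in drought (limma adjusted p = 1.7e-06) and -2.40 ± 0.16 in heat (limma adjusted p = 1.6e-07). The copy on C04 (BnaC04g28250D) averaged 1.34 ± 0.16 FPKM in drought, 1.38 ± 0.62 FPKM in heat and 6.03 ± 1.53 FPKM in control leaves.

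FLA16, linked in Arabidopsis to stem strength, had 4 copies, of which 1 fell in drought and 3 in heat. The copies BnaA03g16360D and BnaC03g19670D met the rule through their control values alone, which fixed their direction. BnaA03g16360D is 1 of the 3 heat falls. BnaA04g20880D stood at 2.28, 1.52 and 2.59 FPKM in drought leaves, 2.84, 2.75 and 2.94 FPKM in heat leaves, and 11.3, 11.4 and 12.8 FPKM in control leaves. Both treatments lay far below the controls. Its log2 change was -2.05 ± 0.14 in drought (limma adjusted p = 2.7e-07) and -1.74 ± 0.14 in heat (limma adjusted p = 5.9e-07). Its C04 counterpart BnaC04g44840D showed another order, with heat lowest. It stood at 3.20, 3.22 and 4.22 FPKM in drought leaves, 0.984, 0.478 and 0.820 FPKM in heat leaves, and 6.61, 7.13 and 8.24 FPKM in control leaves. It fell in heat by 2.25 ± 0.15 on the log2 scale (limma adjusted p = 1.6e-07), and heat was below drought by -1.37 ± 0.15 (limma adjusted p = 9.1e-06). Its drought change of -0.88 was not called.

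FLA17 and FLA18 completed group B. None of their 6 copies was called in drought, with log2 changes from -0.92 to -0.24, and 5 of the 6 fell in heat. The highest of them, FLA18 BnaA05g27380D, averaged 22.9 ± 1.93 FPKM in drought leaves, 9.25 ± 0.58 FPKM in heat leaves and 29.3 ± 1.33 FPKM in control leaves. Its log2 change in heat was -1.57, and heat was below drought by -1.22, also called.

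**Figure D3:**
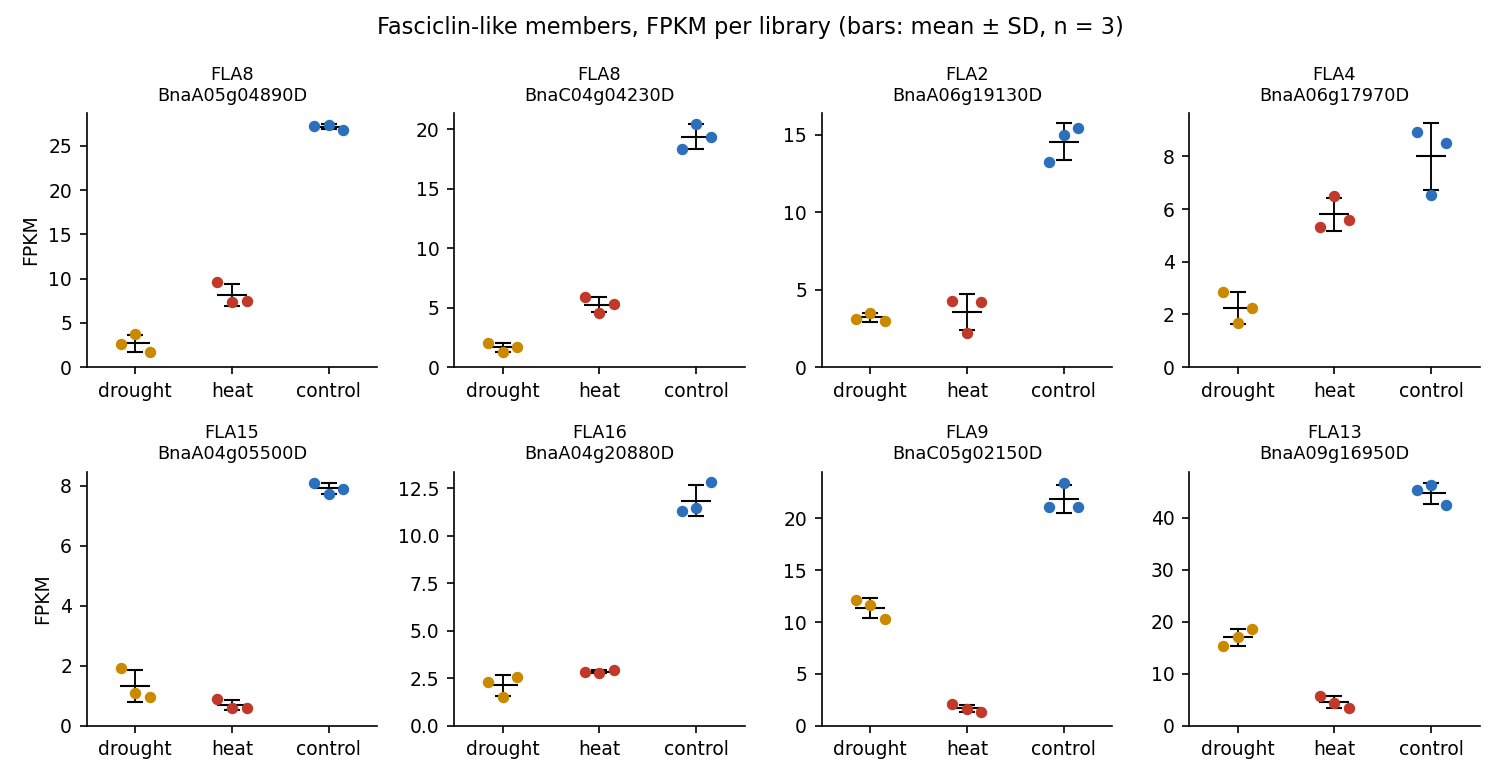
FPKM of 8 fasciclin-like members in every library, with drought left, heat in the middle and control right; points are libraries and bars are the mean ± SD of 3 libraries. The 2 FLA8 copies and FLA4 are lowest in drought, while FLA9 BnaC05g02150D and FLA13 BnaA09g16950D are lowest in heat.

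Group A holds short FLAs with a lipid anchor signal. In drought 5 of its 13 members fell and 1 rose, and in heat 9 fell. Of all genes tested, 6.87% fell and 5.12% rose in drought, and 11.2% fell in heat. FLA9 had 3 copies, of which 2 fell under each treatment. In BnaC05g02150D the values were 12.1, 11.6 and 10.3 FPKM in drought leaves, 2.05, 1.59 and 1.35 FPKM in heat leaves, and 21.1, 23.4 and 21.1 FPKM in control leaves, with no overlap of any groups. The heat mean was 0.0760 times the control mean, a log2 change of -3.11 ± 0.11 (limma adjusted p = 1.0e-09), and the drought change of -0.89 was not called. Heat was below drought by -2.22 ± 0.11 (limma adjusted p = 1.5e-08). The A10 copy, BnaA10g02230D, did not share that order and averaged 3.84 ± 0.60 FPKM in drought, 5.83 ± 0.66 FPKM in heat and 11.1 ± 1.02 FPKM in control leaves, a drought fall of 1.33 on the log2 scale.

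FLA13 had 3 copies. BnaA09g16950D, the highest fasciclin-like member, stood at 15.4, 17.0 and 18.6 FPKM in drought leaves, 5.65, 4.45 and 3.43 FPKM in heat leaves, and 45.4, 46.3 and 42.5 FPKM in control leaves. The groups were fully separate, with heat lowest. Its log2 change was -1.35 ± 0.13 in drought (limma adjusted p = 7.1e-06) and -3.07 ± 0.13 in heat (limma adjusted p = 3.7e-09), and heat was below drought by -1.72 ± 0.13 (limma adjusted p = 4.3e-07). BnaC09g17940D averaged 14.04 ± 1.79 FPKM in drought, 4.48 ± 0.87 FPKM in heat and 24.3 ± 2.80 FPKM in control leaves and fell in heat by 2.21 on the log2 scale. This copy has a model of 147 residues and the next gene identifier, FLA9 BnaC09g17950D, one of 70 residues, so both are short for their group.

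The third FLA13 copy was the sole fasciclin-like gene that rose in drought. BnaA06g36300D stood at 2.91, 4.19 and 3.73 FPKM in drought leaves, 0.421, 0.976 and 0.319 FPKM in heat leaves, and 0.643, 1.91 and 1.28 FPKM in control leaves, so drought lay above both other groups. The log2 change of 1.04 lay close to the threshold and was 0.95 without drought library 2 and 0.83 without control library 1, where the call was lost.

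FLA11 and FLA12 are FLAs of stems and secondary walls in Arabidopsis. None of the 4 FLA11 copies was called in drought and 3 fell in heat, with log2 changes from -1.31 to -0.997 over the 4. The highest, BnaA03g00780D, averaged 4.09 ± 0.76 FPKM in drought, 1.75 ± 0.32 FPKM in heat and 5.04 ± 1.49 FPKM in control leaves. One of the 3, BnaA03g08880D, matches FLA11 at 50% identity only, and its heat libraries stood at 0. Xylem and secondary wall markers summed to 31.8 to 36.2 FPKM in drought, 13.6 to 17.9 FPKM in heat and 32.6 to 38.6 FPKM in control libraries. The largest part of this sum was XCP2, at 6.31 to 10.35 FPKM in heat and 15.87 to 18.48 FPKM in control libraries. Of 12 such genes tested, 3 fell in heat, where 11.2% of all genes tested did. The markers did not all move alike. VND7 was higher in heat, at 0.553 to 1.06 FPKM, than in control libraries, at 0 to 0.161 FPKM, and CTL2 was at 0 throughout. The part of these tissues in the FLA11 values was not tested. The single FLA12 member averaged 1.32 ± 0.39 FPKM in drought, 1.51 ± 0.23 FPKM in heat and 1.65 ± 0.068 FPKM in control leaves and was called in neither. Both FLA7 copies fell under each treatment.

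The 3 remaining fasciclin-like members match loci outside the 4 groups. AT3G55820 BnaC08g26750D stood at 3.87, 3.29 and 1.78 FPKM in drought leaves, 6.91, 4.54 and 5.98 FPKM in heat leaves, and 1.67, 1.52 and 2.05 FPKM in control leaves. All heat libraries lay above all others, while drought overlapped control. The heat rise was 1.30 on the log2 scale, the sole rise of a fasciclin-like member in heat. AT5G26730 BnaC09g03570D fell in heat by 1.28 on the log2 scale and rests on a match of 57.82% identity.

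Classical arabinogalactan proteins had the lowest ratio of heat to control of the classes, at 0.138. Their sum was 120.9, 134.0 and 134.7 FPKM in drought leaves, 25.07, 22.98 and 24.07 FPKM in heat leaves, and 180.9, 172.3 and 168.3 FPKM in control leaves, and the groups did not overlap. In heat 7 of 13 members fell and none rose, where 11.2% of all genes tested fell and 14.4% rose. In drought 2 fell and 2 rose, beside 6.87% and 5.12% of all genes. Both drought rises are AGP6 copies, whose direction the rule fixed. AGP2 carried most of the fall of the class sum in heat. All 4 of its copies fell in heat, and all 4 were lower in heat than in drought leaves.

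AGP2 on C08 (BnaC08g35060D) stood at 27.0, 29.5 and 29.0 FPKM in drought leaves, 2.71, 4.20 and 3.33 FPKM in heat leaves, and 93.8, 89.6 and 86.5 FPKM in control leaves. The heat mean was 0.0380 times the control mean, a log2 change of -4.38 ± 0.11 (limma adjusted p = 3.9e-11), the largest change of any member. In drought the log2 change was -1.63 ± 0.11 (limma adjusted p = 2.6e-07). The 3 groups were far apart, with heat lowest and drought between.

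The copy on C04 (BnaC04g34970D) did not share the drought fall. It stood at 35.8, 40.4 and 40.2 FPKM in drought leaves, 1.32, 1.16 and 1.33 FPKM in heat leaves, and 21.5, 15.8 and 21.2 FPKM in control leaves, so every drought library exceeded every control. The drought change of 0.97 ± 0.12 missed the threshold of 1, and it passed at 1.02 without drought library 1, at 1.04 without control library 1 and at 1.03 without control library 3, as well as with TMM factors at 1.05. In heat it fell by 3.16 ± 0.12 (limma adjusted p = 1.1e-09), and heat was below drought by -4.13 ± 0.12 (limma adjusted p = 1.0e-10). Heat was 0.0328 times drought in the mean. The copy BnaA09g42610D, averaged 21.6 ± 1.39 FPKM in drought, 4.37 ± 1.39 FPKM in heat and 11.2 ± 4.30 FPKM in control leaves, with a drought change of 0.95 that was not called. Summed over its 4 copies, AGP2 stood at 90.7 ± 5.58 FPKM in drought, 9.39 ± 0.55 FPKM in heat and 124 ± 1.57 FPKM in control leaves, and this sum was not called in drought, at a log2 change of -0.45.

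AGP1 also had 4 members, of which 3 fell in heat and 1 in drought. BnaC03g49860D averaged 21.2 ± 2.69 FPKM in drought, 5.72 ± 0.69 FPKM in heat and 25.8 ± 2.30 FPKM in control leaves, a heat change of -1.998. The single members of AGP4, AGP25 and AGP27 were not called in drought or heat against control.

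AGP6 gave both classical genes that rose in drought, and both met the rule through their drought values alone, which fixed that direction. It is a pollen gene in Arabidopsis, where it acts with AGP11 in pollen tube growth. BnaA05g33680D stood at 2.95, 2.33 and 1.13 FPKM in drought leaves, 0.371, 0 and 0 FPKM in heat leaves, and 0.189, 0.187 and 0 FPKM in control leaves. These values rest on 15, 12 and 6 reads in drought, on 2, 0 and 0 in heat and on 1, 1 and 0 in control libraries. The log2 change of 1.44 depends on the pseudocount at such levels. BnaC03g06470D, which lies under 2 FPKM, had 9 reads in each drought library, none in heat and 1 read in 1 control library. Pollen markers moved with it, at a sum of 8.69 to 9.36 FPKM in drought, 0.0928 to 0.350 FPKM in heat and 0.754 to 1.19 FPKM in control libraries. All 4 marker genes tested, which are copies of VGD1, rose in drought, where 5.12% of all genes tested did. Like the AGP6 members, they reached 1 FPKM in drought libraries alone, which fixed that direction. ANX1 and ANX2 stayed under 0.6 FPKM in every library. The part of pollen in the AGP6 values was not tested.

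Lysine-rich arabinogalactan proteins carry a basic stretch within the glycosylated backbone, and AGP17 to AGP19 form the group in Arabidopsis. Their sum was 40.3, 52.8 and 44.1 FPKM in drought leaves, 18.27, 14.03 and 11.96 FPKM in heat leaves, and 54.1, 55.0 and 57.4 FPKM in control leaves. Heat was lowest without overlap. In heat 3 of 5 fell and in drought 1 of 5, where 11.2% and 6.87% of all genes tested did. AGP17, which in Arabidopsis roots takes part in the binding of Agrobacterium, averaged 22.6 ± 3.24 FPKM in drought, 5.63 ± 1.44 FPKM in heat and 21.9 ± 1.73 FPKM in control leaves in BnaA03g53960D. Its log2 change was -1.81 in heat and 0.04 in drought. AGP18, which acts in the selection of the female spore in Arabidopsis, had 2 copies that both fell in heat, and the A01 copy BnaA01g00450D also fell in drought. Neither AGP19 copy was called.

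The chimeric class, AGP30 and AGP31, did not follow the falls in heat. Its sum was 16.0, 16.1 and 18.0 FPKM in drought leaves, 29.4, 28.6 and 30.6 FPKM in heat leaves, and 22.9, 23.1 and 21.1 FPKM in control leaves. Heat was highest and drought lowest, with no overlap. No member was called against control under either treatment. Between the treatments 2 of 3 were higher in heat. AGP31 BnaA07g08530D stood at 12.1, 11.0 and 10.5 FPKM in heat leaves, against 2.99, 2.15 and 3.11 FPKM in drought leaves, and its difference was 1.71 on the log2 scale. AGP31 binds wall galactans in Arabidopsis. The AGP30 member rests on a match of 48.33% identity.

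AT4G16980, annotated as an arabinogalactan protein family gene, gave 5 members that all fell in drought, while in heat 2 fell and 3 were not called. The sum over the 5 was 33.5, 40.0 and 37.4 FPKM in drought leaves, 89.92, 98.01 and 92.09 FPKM in heat leaves, and 98.6, 93.1 and 100.1 FPKM in control leaves. Drought lay far below, and heat overlapped control. Summed per locus, the log2 change was -1.38 ± 0.063 in drought (limma adjusted p = 1.0e-09) and -0.06 ± 0.063 in heat, and heat exceeded drought by 1.32 ± 0.063 (limma adjusted p = 7.7e-10).

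The copies split in heat. BnaA03g42870D stood at 2.07, 1.46 and 1.69 FPKM in drought leaves, 21.17, 19.97 and 18.74 FPKM in heat leaves, and 10.6, 9.56 and 9.92 FPKM in control leaves, so heat was above control and drought below it without overlap. It fell in drought by 2.01 ± 0.11 on the log2 scale (limma adjusted p = 3.4e-08), its heat change of 0.92 ± 0.11 was not called, and heat exceeded drought by 2.94 ± 0.11 (limma adjusted p = 7.1e-10). BnaA01g18050D, in contrast, averaged 0.742 ± 0.17 FPKM in drought, 0.608 ± 0.29 FPKM in heat and 5.03 ± 2.32 FPKM in control leaves and fell under both treatments, as its choice through control values alone had fixed. BnaC01g21320D, a model of 50 residues, also fell under both treatments, at 0.526 ± 0.013 FPKM in drought, 0.848 ± 0.78 FPKM in heat and 4.96 ± 1.5 FPKM in control leaves. At its length 1 FPKM rests on 1.93 reads, so the treated values rest on very few reads. The small drought SD is therefore no measure of precision. The highest copy, BnaUnng03440D, averaged 31.7 ± 3.17 FPKM in drought, 58.4 ± 5.92 FPKM in heat and 69.6 ± 5.42 FPKM in control leaves and was called in drought alone, at -1.11.

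Arabinogalactan peptides held the most members, and in heat 5 of 27 rose and 13 fell, where 14.4% of all genes tested were called higher and 11.2% lower. Of the 5 rises, 2 are in AGP16 copies that met the rule through their heat values alone. In drought 1 rose and 3 fell, where 5.12% of all genes were higher and 6.87% lower. The shares that rose were near those of all genes and are no result about the peptides. Copies of 1 gene often parted here. AGP15 had 5 members and a locus sum of 425 ± 58.4 FPKM in drought, 378 ± 27.4 FPKM in heat and 338 ± 29.0 FPKM in control leaves, which was called in no comparison.

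Within AGP15, BnaC09g44830D stood at 119, 121 and 140 FPKM in drought leaves, 194, 209 and 177 FPKM in heat leaves, and 72.7, 97.7 and 100 FPKM in control leaves, with heat highest and no overlap. It rose in heat by 1.10 ± 0.11 on the log2 scale (limma adjusted p = 6.3e-06). That call was lost at 0.96 without control library 1 and at 0.91 with TMM factors. BnaA03g03530D ran opposite, with 47.2, 38.2 and 51.4 FPKM in drought leaves, 25.0, 27.0 and 23.3 FPKM in heat leaves, and 67.9, 84.9 and 68.1 FPKM in control leaves. It fell in heat by 1.51.

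The other AGP15 copies had smaller changes in heat. BnaA10g20830D averaged 157 ± 11.9 FPKM in drought, 63.3 ± 11.2 FPKM in heat and 110 ± 9.97 FPKM in control leaves, and heat was below drought by -1.31, which was called. BnaA02g34980D averaged 67.4 ± 21.5 FPKM in drought, 78.4 ± 11.9 FPKM in heat and 50.8 ± 8.78 FPKM in control leaves and was called nowhere. BnaC02g04020D was the sole peptide gene that rose in drought, at 24.1, 18.0 and 38.7 FPKM in drought leaves, 15.6, 16.9 and 20.1 FPKM in heat leaves, and 16.3, 10.6 and 9.93 FPKM in control leaves. Its log2 change of 1.03 was 0.75 without drought library 3, 0.95 without control library 2 and 0.91 without control library 3, and the call was lost in each.

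AGP16 had 6 copies, of which 3 rose and 2 fell in heat, and 2 of the 3 rises are in copies that met the rule through their heat values alone. None was called in drought. BnaC09g04570D stood at 53.9, 66.7 and 53.8 FPKM in drought leaves, 12.1, 17.0 and 9.78 FPKM in heat leaves, and 44.3, 68.3 and 62.6 FPKM in control leaves, with heat below both and drought within the controls. Its heat change was -2.10 ± 0.19 (limma adjusted p = 2.1e-06). BnaA05g01480D stood at 18.5, 24.1 and 22.6 FPKM in drought leaves, 29.3, 30.2 and 33.8 FPKM in heat leaves, and 11.4, 14.4 and 20.5 FPKM in control leaves. Heat was highest without overlap, and the log2 change of 1.0001 lay on the threshold. It was lost at 0.94 without heat library 3, at 0.81 without control library 1, at 0.97 without control library 2, at 0.82 with TMM factors and at 0.98 with quantile normalization.

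Those 2 copies are low, and because they reached 1 FPKM in heat leaves alone, the rule itself set their heat libraries above the others, so their values are a description. BnaC03g25710D stood at 5.57, 3.23 and 2.82 FPKM in heat leaves, against 0.355, 0.352 and 0.354 FPKM in control leaves, where each control value is a single read, and it was at 0 in all drought libraries. BnaA03g21340D stood at 2.44, 2.15 and 5.28 FPKM in heat leaves, against 0, 0.703 and 0.354 FPKM in control leaves. The log2 changes were 1.81 and 1.63. Summed over its copies AGP16 averaged 87.1 ± 9.92 FPKM in drought, 59.7 ± 2.93 FPKM in heat and 82.0 ± 14.8 FPKM in control leaves and was not called.

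AGP12 had 10 members, the most of any gene. In heat 7 of them fell and none rose, with log2 changes from -2.87 to -0.24, and in drought 3 fell. BnaC01g37590D stood at 30.9, 36.0 and 51.8 FPKM in drought leaves, 2.05, 3.37 and 4.14 FPKM in heat leaves, and 26.7, 26.0 and 34.9 FPKM in control leaves. Drought overlapped control and heat lay far below, at a log2 change of -2.87 ± 0.21 (limma adjusted p = 4.1e-07). Its heat mean was 0.0806 times its drought mean. BnaCnng01020D averaged 9.34 ± 1.60 FPKM in drought, 1.12 ± 0.89 FPKM in heat and 13.4 ± 2.03 FPKM in control leaves. Both copies have 62 residues and the same 90.32% identity to Arabidopsis, so reads may be split between them.

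Further AGP12 copies show how the treatments parted. BnaC05g39800D stood at 72.4, 82.8 and 87.1 FPKM in drought leaves, 15.0, 20.6 and 10.9 FPKM in heat leaves, and 41.1, 47.8 and 50.7 FPKM in control leaves, so drought was highest and heat lowest. Its drought change of 0.78 was not called, its heat change was -1.56 and heat was below drought by -2.35, both called. BnaC03g70450D stood at 24.1, 23.4 and 27.4 FPKM in drought leaves, 26.2, 38.3 and 36.2 FPKM in heat leaves, and 59.6, 67.5 and 54.6 FPKM in control leaves. Both treatments lay below control, and only the drought change of -1.24 was called. BnaA05g13800D averaged 10.2 ± 3.40 FPKM in drought, 3.05 ± 1.91 FPKM in heat and 21.4 ± 4.07 FPKM in control leaves. Its heat fall was 2.59, and its drought fall of 1.03 was lost without drought library 1 (-0.98), drought library 3 (-0.85), control library 1 (-0.99) or control library 3 (-0.92). It was also lost with TMM factors (-0.95), quantile normalization (-0.98), a pseudocount of 0.1, no filter, or no trend and robust moderation.

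**Figure D4:**
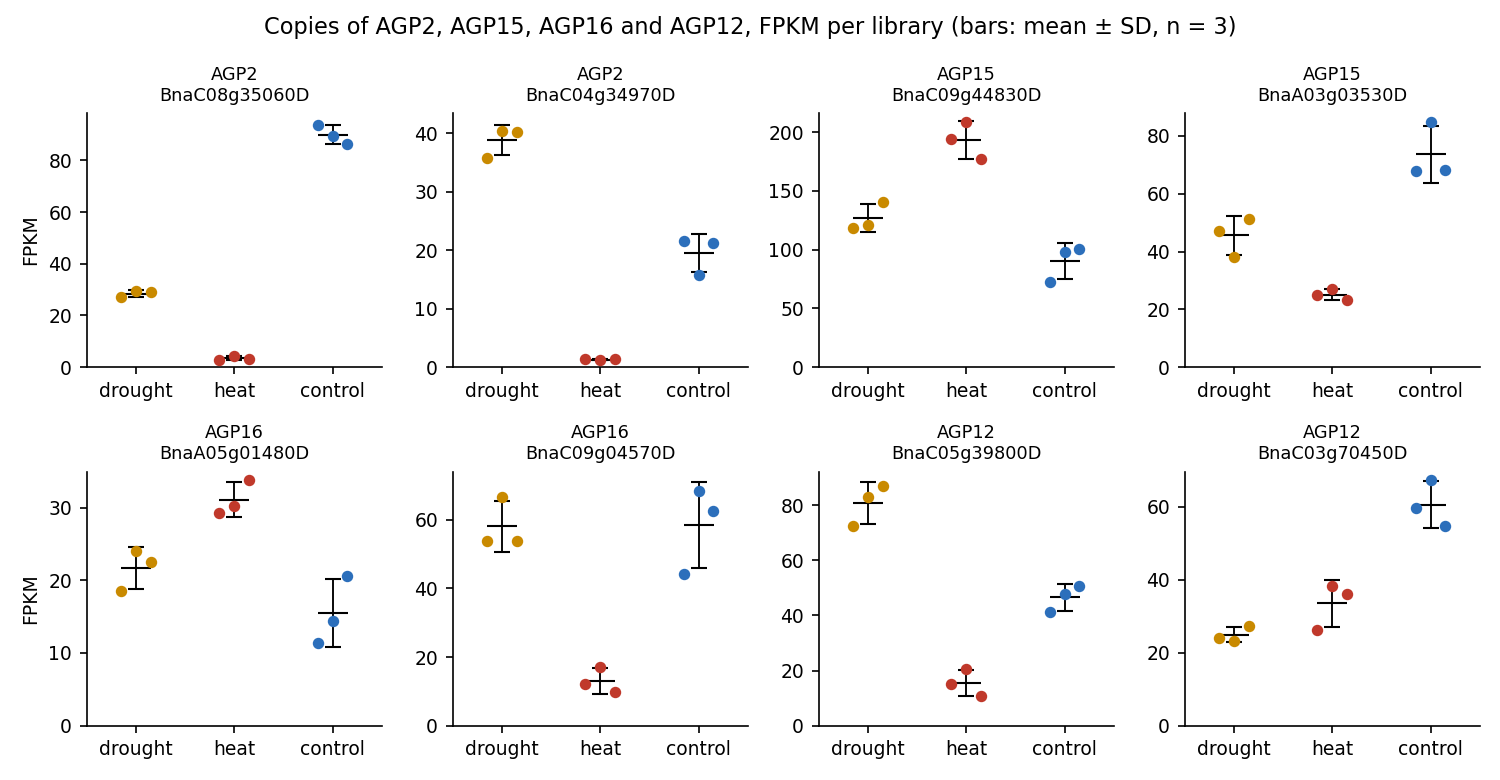
FPKM of pairs of copies of AGP2, AGP15, AGP16 and AGP12 in every library, with drought left, heat in the middle and control right; points are libraries and bars are the mean ± SD of 3 libraries. AGP15 BnaC09g44830D and AGP16 BnaA05g01480D are highest in heat, while AGP15 BnaA03g03530D and AGP16 BnaC09g04570D are lowest there.

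AGP22 had 4 members, none called in drought. In heat BnaC03g15120D rose, at 4.43, 3.32 and 3.67 FPKM in heat leaves, against 1.23, 2.03 and 0.409 FPKM in control leaves. The log2 change of 1.17 was 0.88 without control library 3, where the call was lost, and its adjusted p was 0.104 in limma with a pseudocount of 0.1. BnaA10g06640D fell, at 2.01, 1.25 and 0.815 FPKM in heat leaves, against 17.2, 12.2 and 8.60 FPKM in control leaves, a log2 change of -2.52 ± 0.26 (limma adjusted p = 6.0e-06). The AGP20 locus, with 2 members, averaged 38.4 ± 1.43 FPKM in drought, 12.0 ± 4.0 FPKM in heat and 24.4 ± 1.65 FPKM in control leaves, and its A04 copy fell in heat by 2.05.

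When all copies of an Arabidopsis locus were summed before the fit, including copies that were not members, the 92 members became 33 loci. In drought 10 loci fell and AGP6 alone rose. AGP6 is among the loci only through members that met the rule by their drought values alone. FLA10, which is among the falls, is there only through a member that met it by control values alone. The rule thus favoured both directions. Of the 10 falls, 9 were fasciclin-like and the other was AT4G16980. Of all 16186 loci tested, 7.31% were called lower and 5.08% higher in drought. In heat 18 loci fell and AT3G55820 alone rose, with 11 of the falls among the 16 fasciclin-like loci and 7 among the 17 arabinogalactan loci, where 10.4% of all loci were lower and 14.5% higher. Heat and drought differed at 15 loci, 12 lower and 3 higher in heat, where 10.2% of all loci were lower and 18.0% higher. AGP6 is among the 12, with the same limit. The loci with the largest heat falls were AGP2 at -3.59, FLA13 at -2.74 and FLA15 at -2.31. In drought they were FLA8 at -3.12, FLA15 at -2.03 and FLA2 at -1.66.

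Enzymes that build the sugar chains of these proteins were read in the same fit from a list of Arabidopsis loci. Prolyl 4-hydroxylases make the hydroxyproline to which the sugars attach, glycosyltransferases add galactose, fucose and glucuronic acid, and AGM enzymes methylate the glucuronic acid. Of 62 such genes tested, 5 (8.06%) rose in drought, where 5.12% of all genes did. In heat 9 (14.5%) rose and 3 (4.84%) fell, beside 14.4% and 11.2% of all genes. Of the 9, the glycosyltransferase gene FUT6 BnaA09g45840D and the hydroxylase gene P4H5 BnaC03g47960D reached 1 FPKM in heat libraries alone, which fixed that direction. Heat exceeded drought in 12 (19.4%) and was lower in 7 (11.3%), beside 17.5% and 11.1% of all genes. Of the 12, P4H5 BnaC03g47960D and the glycosyltransferase gene GALT29A BnaC05g05950D reached 1 FPKM in heat libraries alone. The shares that rose in heat or differed between the treatments were near those of all genes and are no result about the enzymes. Falls in drought were called by limma only without the fold threshold (10 genes) or with a pseudocount of 0.1 (6 genes), and by voom on recovered reads (6 genes). In heat, a pseudocount of 0.1 gave 19 rises and voom 18.

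The drought rises were all glycosyltransferases, 5 of 37 tested. The largest was in GALT6, which attaches the first galactose to hydroxyproline. BnaA06g22090D stood at 28.7, 25.6 and 30.6 FPKM in drought leaves, 4.51, 4.21 and 5.42 FPKM in heat leaves, and 7.18, 7.82 and 7.64 FPKM in control leaves, a drought change of 1.77 ± 0.10 (limma adjusted p = 8.7e-08). The drought libraries lay far above the other 6. In heat the largest change among the glycosyltransferases was a fall of GALT2 BnaA01g10940D by 1.60, to 7.93 ± 2.80 FPKM in heat leaves, against 25.2 ± 1.38 FPKM in control leaves.

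In heat both AGM genes tested rose, and 3 of 23 prolyl 4-hydroxylases rose, a share near the 14.4% of all genes. AGM1 BnaA09g27690D stood at 14.5, 15.3 and 17.4 FPKM in heat leaves, against 2.35, 1.80 and 1.81 FPKM in control leaves, a log2 change of 2.49 ± 0.16 (limma adjusted p = 1.5e-07). P4H5 BnaA06g25630D averaged 6.25 ± 1.10 FPKM in heat leaves, against 1.009 ± 0.29 FPKM in control leaves, a rise of 1.85. All 3 prolyl 4-hydroxylase genes that rose were copies of P4H5, which acts in root hair growth in Arabidopsis. Of these 3, BnaC03g47960D reached 1 FPKM in heat libraries alone, which fixed that direction.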

How the data were processed

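Leaf RNA of Brassica napus was measured in 9 libraries. Reads were aligned with HISAT2, per the submitters' processing notes, whose version, like the genome build and the tool that counted, is not given in the sources used here. What the authors deposited is gene values in FPKM, a unit taken from the numbers themselves, with percent identity to the best Arabidopsis protein. Each value multiplied by the coding length is a whole number of reads, within 0.01, for at least 99.4% of genes above 0. That share is over genes with a listed protein length, from which the coding length was taken. The table's columns were assigned to Brassica napus because it lists that species' gene models.

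Values entered the fit as log2(FPKM + 1), unscaled. Group means were fitted to the 9 libraries together in limma (3.58.1, run in R 4.3.3) with trend and robust moderation, and p-values were adjusted by Benjamini-Hochberg over 44260 genes with at least 1 FPKM in 3 libraries. The members, gene lists and tests were chosen with earlier results of these data known. Named genes are the up to 10 largest rises and falls per treatment among called members of at least 2 FPKM, the 8 highest members, genes with 3 or more copies and the members at the threshold. FLA10, FLA17, FLA18, AGP17, AGP31 and other single copies were added to complete the classes after their values were seen. The script was tested on simulated data of small spread, in which only genes of higher level were changed. Calls of members of low level were not tested in this way. Matplotlib 3.10.9 drew the figures, under Python 3.11.15 with pandas 2.3.3 and NumPy 2.4.6. Alternatives were 2 scalings, a pseudocount of 0.1, other filters, no moderation, only the groups compared, a replicate block, summed copies, no fold threshold, voom on recovered reads and leaving out each library.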

Additional observations from a re-analysis of the deposited data

How the results depend on the processing

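The counts of members called kept their direction, more falls than rises, in all 3 comparisons under every alternative run, and no named member reversed. Of 1854 values of the 33 named members under alternatives, 1801 kept their side of the threshold.

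In drought the median change was -0.46 with quantile normalization, -0.87 with a pseudocount of 0.1, -0.80 with a filter of 5 FPKM, -0.82 with voom and -0.45 with copies summed. Members called higher were 1 of 54 with the 5 FPKM filter, 1 with copies summed and 12 without a fold threshold, and lower were 10 with copies summed and 44 without a fold threshold. In heat the median was -1.25 with TMM factors, -1.28 with quantile normalization, -1.68 with a pseudocount of 0.1, -1.57 with the 5 FPKM filter, -1.66 with voom and -1.29 with copies summed. Members called higher were 2 with the 5 FPKM filter, 1 with copies summed and 12 without a fold threshold, and lower were 18 with copies summed. For heat against drought the median was -0.65 with TMM factors, -0.71 with quantile normalization, -0.85 with a pseudocount of 0.1, -0.66 with the 5 FPKM filter and -0.86 with voom. Members called higher were 7 with quantile normalization, 3 with copies summed and 22 without a fold threshold, and lower were 12 with copies summed and 47 without a fold threshold.

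Enzymes called higher in drought were 3 with the 5 FPKM filter, 1 with copies summed and 10 without a fold threshold, and lower were 6 with a pseudocount of 0.1, 6 with voom and 10 without a fold threshold. In heat they were higher in 19 with a pseudocount of 0.1, 18 with voom, 2 with copies summed and 31 without a fold threshold, and lower in 5 with a pseudocount of 0.1, 5 with voom and 10 without a fold threshold. For heat against drought they were higher in 23 with a pseudocount of 0.1, 23 with voom, 5 with copies summed and 32 without a fold threshold, and lower in 2 with copies summed. Fewer genes are tested with the 5 FPKM filter and with copies summed, and the cause of the other shifts was not tested.

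Leaving out 1 library gave 3 to 5 rises and 25 to 28 falls of members in drought with a median of -0.67 to -0.50, 4 to 6 rises and 48 to 54 falls in heat with a median of -1.21 to -1.13, and 10 to 11 members higher and 29 to 31 lower in heat against drought with a median of -0.55 to -0.46. Enzymes gave 4 to 5 rises and 0 falls in drought, 8 to 11 rises and 3 to 4 falls in heat, and 12 to 13 higher and 6 to 7 lower in heat against drought. Same-numbered libraries did not deviate together, with correlations from -0.018 to 0.025. The values thus gave no sign that the numbers pair the samples, which does not exclude a pairing. With the replicate block the member counts were 4 higher and 27 lower in drought, 6 and 50 in heat, and 11 and 30 in heat against drought. By class median, depth limits the peptide genes most, at 2.43 reads per FPKM, with a range of 2.24 to 2.81. The lowest single member is a copy of AT4G16980, at 1.93 reads per FPKM.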

Other observations

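The described genes under the threshold included further genes known from pollen in Arabidopsis, and they did not share 1 pattern. AGP11, the partner of AGP6, had 1 gene in the table, with 3, 7 and 6 reads in drought libraries, 0, 0 and 1 in heat libraries and 0, 1 and 1 in control libraries. FLA14 had 1 copy with reads, BnaC05g40570D, at 8, 5 and 8 reads in drought, 6, 3 and 0 in heat and 0 in all control libraries. The 3 copies of FLA3 summed to 0, 0 and 2 reads in drought, 3, 0 and 5 in heat and 0 in all control libraries. The 3 AGP6 copies that were not members summed to 4, 7 and 5 reads in drought, 0, 0 and 1 in heat and 8, 0 and 1 in control libraries, so drought overlapped control. AGP40, with 5 copies, summed to 1, 5 and 4 reads in drought, 0 in all heat libraries and 2, 3 and 0 in control libraries, again with overlap. FLA19, a group D gene with 8 copies and no member, summed to 1.55 ± 0.36 FPKM in drought, 1.52 ± 0.65 FPKM in heat and 1.04 ± 0.13 FPKM in control leaves. These values were not tested as members and rest on few reads.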
